A study of Zea mays with 24 samples.

Results

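The 100 genes described here are those whose transcript stood highest in group q2 relative to group q1 in all 4 sampled segments of the second leaf of maize seedlings. The tables from which they were taken name their 2 groups only q1 and q2 and do not say which is the mutant, so each direction is q2 against q1, taking q1 to be one genotype in all 4 tables. For each gene, L was computed as log2((q2 FPKM + 1)/(q1 FPKM + 1)) in each of the 4 deposited tables, where FPKM counts sequenced fragments relative to transcript length and library size. Genes tested by the authors in all 4 tables and reaching at least 5 FPKM in one group somewhere were ranked by the smallest of their 4 L values, and the 100 highest were taken. Of 39634 genes listed, 14134 could have been chosen. The asparagine synthetase gene asn3 (GRMZM2G053669) was left out by the rule; its smallest L of 4.41 would have placed it first.

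The study sampled plants of the inbred line W22, aged 9 days, that were either wild type or carried dct2-1, an allele of the gene for the plastid dicarboxylate transporter pDCT2. Segment -4 is the non-photosynthetic base of the blade, -1 the zone where the leaf turns from sink to source, +4 light-exposed mid-leaf tissue and +10 the tip. The labels list 24 libraries in 8 groups (2 genotypes by 4 segments), 3 libraries per group, each from 15 pooled plants, and all plants shared the same conditions (a 16 h day, 500 umol of light m-2 s-1, 28 degrees C, 40% humidity). The tables hold 1 value per group and gene, pooled by the authors over the libraries, so no spread between libraries could be computed.

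In C4 leaves, mesophyll cells fix carbon into acids that move to the bundle sheath, where a plastid transporter of dicarboxylates takes up malate for decarboxylation. Among the genes below are molecular chaperones. Small heat shock proteins hold unfolding proteins in solution, and chaperones of the HSP90 family help client proteins fold. Heat shock factors are the transcription factors that bind the promoters of such genes.

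The transcript of pDCT2 (GRMZM2G086258), the targeted gene, stood lower in q2 in every one of the authors' deposited tables, with L of -2.14, -5.61, -6.00 and -4.89 at segments -4, -1, +4 and +10. All series of 4 values below follow that order of segments. FPKM summed over all genes ranged from 775209 to 861222 in q1 and from 629078 to 752339 in q2, and read depth is unknown. The median L of all tested genes was between 0.01 and 0.02 in every segment. Of the leaf markers, ca1, ssu2 and pck1 matched no symbol, and apart from pep1 and pdk1 the others were above 0 in both groups. At +4 the mesophyll gene pep1 (GRMZM2G083841) is listed at 0 in q1 and 9116 FPKM in q2, and pdk1 (GRMZM2G306345) at 27347 FPKM in q1 and 0 in q2. Both carry the status HIDATA there in place of a test, so neither 0 is read as absence of the transcript. For that reason both were left out of the marker sums, and the sums over all genes at +4 lack them in 1 group each. Other entries of these symbols, GRMZM5G899080 (pep1), GRMZM2G097821 and GRMZM2G107196 (pdk1), were tested at +4, with log2 ratios of 0.21, 0.06 and 0.24. Summed over lhcb3, cab-m1 and mdh6, mesophyll markers stood at 1080.0, 14790, 16187 and 5956 FPKM in q1 and at 1676, 11264, 2320.4 and 1516 FPKM in q2. At +4, lhcb3 stood at 6364 FPKM in q1 and 452 in q2, cab-m1 at 7679 and 553, and mdh6 at 2145 and 1315. At -4, -1 and +10, pep1 stood at 26.6, 3798 and 10125 FPKM in q1 and 85.0, 3128 and 5336 FPKM in q2. There pdk1 stood at 130, 10645 and 33655.5 FPKM in q1 and 600, 10747 and 22645 FPKM in q2. Bundle sheath markers (4 genes, among them me3 and rca1) summed to 723, 12567, 13362 and 8034 FPKM in q1 and to 1568, 11482, 9908 and 9005 FPKM in q2. Markers of dividing cells (5 genes) summed to 401, 16.6, 11.2 and 5.59 FPKM in q1 and to 227, 18.4, 21.2 and 19.8 FPKM in q2, and of the last 2 values in q2 RNRS1 alone made up 20.5 and 19.5 FPKM. None of the summed markers was listed at 0, none is a member, and their part in the members' differences was not tested. In whole tissue, fewer cells of a type and less RNA per cell cannot be told apart.

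All values of L given for the members were used to choose them and are descriptions without a test. Levels and calls are those of the authors' deposited tables, where a call is an adjusted p under 0.05 from Cuffdiff over all genes tested in a segment. The error after a log2 ratio of FPKM is the standard error implied by the deposited test statistic. Calls rest on the adjusted p alone and need not match that error. Hsf26 (GRMZM2G003489) at +10 was called with a log2 ratio of 3.14 ± 1.38. GRMZM5G873249 at +4 was not called with 4.02 ± 0.57.

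**Figure D1:**
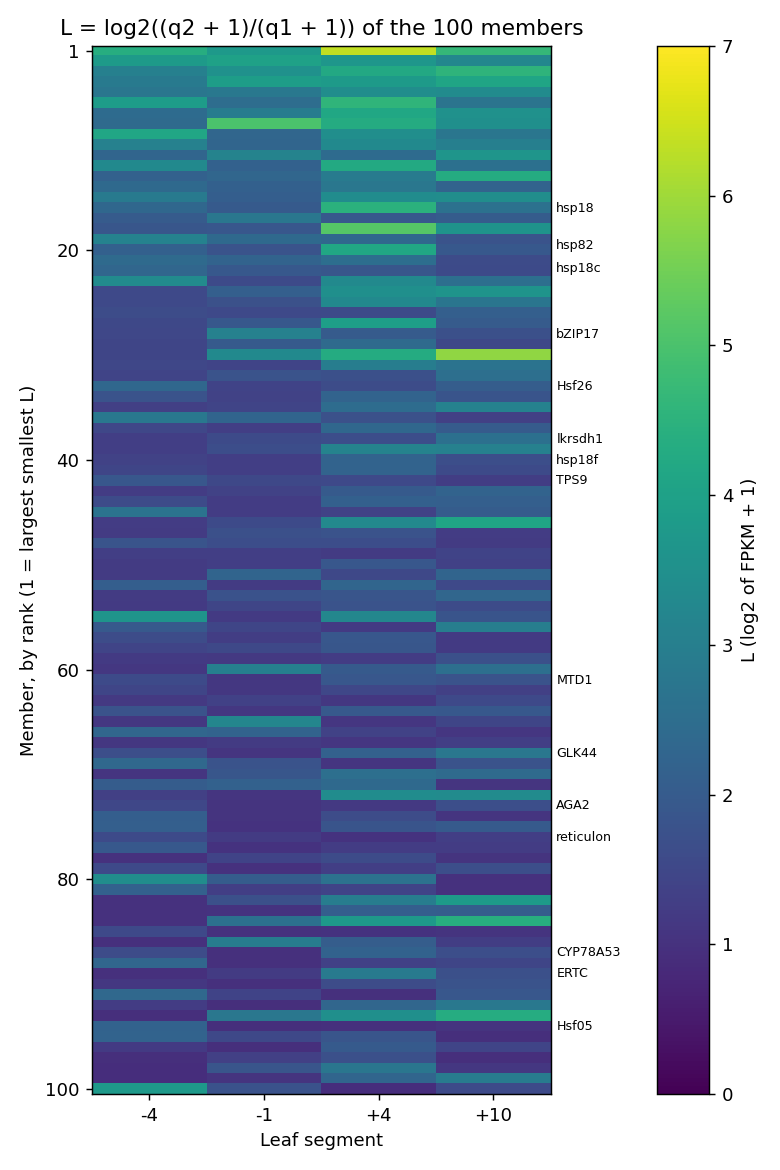
L of the 100 members (rows, in order of rank) in the 4 leaf segments (columns), as log2 of FPKM + 1 in q2 over q1, with the symbol of the 15 members that have one. Every cell lies above 0.92, and the brightest cells fall mostly at segments +4 and +10.

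Median L of the members was 1.61 at -4, 1.56 at -1, 2.13 at +4 and 1.93 at +10. The largest L of a member lay at +4 for 40 genes, at +10 for 29, at -4 for 24 and at -1 for 7. The smallest L, which set the rank, lay at -1 for 39 genes and at -4 for 36, against 10 at +4 and 15 at +10. L was at least 2 in all segments for 15 members, while 20 had a smallest L under 1.

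Called as higher in the authors' deposited tables were 93 members at -4, where 15.2% of all tested genes were called higher, 96 at -1 (background 9.48%), 95 at +4 (19.5%) and 98 at +10 (21.5%). In no table was a member called lower, where the background was 12.7%, 8.22%, 22.8% and 22.3%. The rule used the same contrasts, so nothing is read from these counts. All 4 tables called 88 members, 7 were called in 3 tables, 4 in 2 and 1 in a single table. Over all genes that could have been chosen, 318 (2.25%) were called higher in all 4 tables and 177 (1.25%) were called lower in all 4.

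Members were mostly of low to moderate abundance in q1. Their median level there was 4.43, 7.73, 4.09 and 5.35 FPKM, and in q2 it was 18.7, 27.4, 27.9 and 33.9 FPKM. All genes that could have been chosen had medians of 17.8, 12.9, 10.1 and 11.2 FPKM in q1 and 18.8, 13.3, 10.2 and 11.7 FPKM in q2. The highest level of a member in either group was at the median 49.7 FPKM, against 29.4 FPKM for all genes that could have been chosen. The rule chose on q2 against q1 and so shaped these levels, and nothing is read from the differences. In 62 members the lowest of the 4 pooled levels in q2 exceeded the highest of the 4 pooled levels in q1. Of the 14134 genes that could have been chosen, 230 had this property. The rule favours it and the spread between libraries is unknown, so nothing is read from that count. The tables were scaled separately by the authors, which limits any level set across segments.

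Among members with a symbol, the largest group were heat shock protein genes, namely hsp18, hsp18c, hsp18f and hsp82. The small heat shock protein gene hsp18, also listed as hsp26 (GRMZM2G149647; chromosome 1, 33459255 to 33460463 in the deposited coordinates, whose build the sources used here do not name) stood at 69.8, 169, 31.1 and 179.7 FPKM in q1 and 358, 674, 708 and 1105 FPKM in q2. Its levels in q2 were higher at every segment, and its lowest value in q1 was the one at +4. The log2 ratios of hsp18 were 2.36 ± 0.28, 2.00 ± 0.36, 4.51 ± 0.34 and 2.62 ± 0.30. hsp82 (GRMZM5G833699), a gene of the HSP90 family, stood at 36.7, 28.7, 6.36 and 29.9 FPKM in q1 and 165, 102, 133 and 117 FPKM in q2, with log2 ratios of 2.17 ± 0.31, 1.82 ± 0.36, 4.38 ± 0.35 and 1.97 ± 0.28. As for hsp18, the widest gap was at +4, where the level in q1 was the lowest of the leaf while that in q2 was not.

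The 2 other small heat shock protein genes had lower levels at mid-leaf than at the base in both groups. hsp18f (GRMZM2G083810) stood at 401, 111, 35.05 and 52.95 FPKM in q1 and 1045, 276, 167 and 172 FPKM in q2. hsp18c (GRMZM2G034157) stood at 43.6, 11.5, 3.45 and 9.15 FPKM in q1 and 236, 57.9, 24.5 and 29.5 FPKM in q2. For both, the level at -4 was the highest of the leaf in either group, and q2 was above q1 at every segment. Log2 ratios were 1.38 ± 0.34, 1.31 ± 0.35, 2.25 ± 0.33 and 1.70 ± 0.28 for hsp18f and 2.43 ± 0.27, 2.33 ± 0.42, 2.83 ± 0.54 and 1.69 ± 0.38 for hsp18c. Single values of this family are uncertain, since the sources used here do not say how reads shared among near-identical genes were counted.

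Of 9 tested genes with a heat shock protein symbol, 8, 8, 8 and 7 were called higher in the 4 segments and 0 lower, with a median L of 1.38, 0.84, 1.95 and 1.41. The 4 members among them were chosen by L and shape that median, so nothing is read from it. Counting only the 5 that are not members, 4, 4, 4 and 3 were called higher. The shares over all tested genes were 15.2%, 9.48%, 19.5% and 21.5% called higher and 12.7%, 8.22%, 22.8% and 22.3% called lower. Outside the 100, hsp101 (GRMZM2G360681), a gene of a chaperone that pulls proteins out of aggregates, had log2 ratios of 0.93 ± 0.30, 0.73 ± 0.35, 1.97 ± 0.32 and 1.42 ± 0.28 and rank 184. A further small heat shock protein gene, hsp18a (GRMZM2G404249), was called higher at -4 and not called in the other segments, with log2 ratios of 1.99 ± 0.45, 0.84 ± 0.77, 0.38 ± 0.81 and -0.24 ± 0.67.

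**Figure D2:**
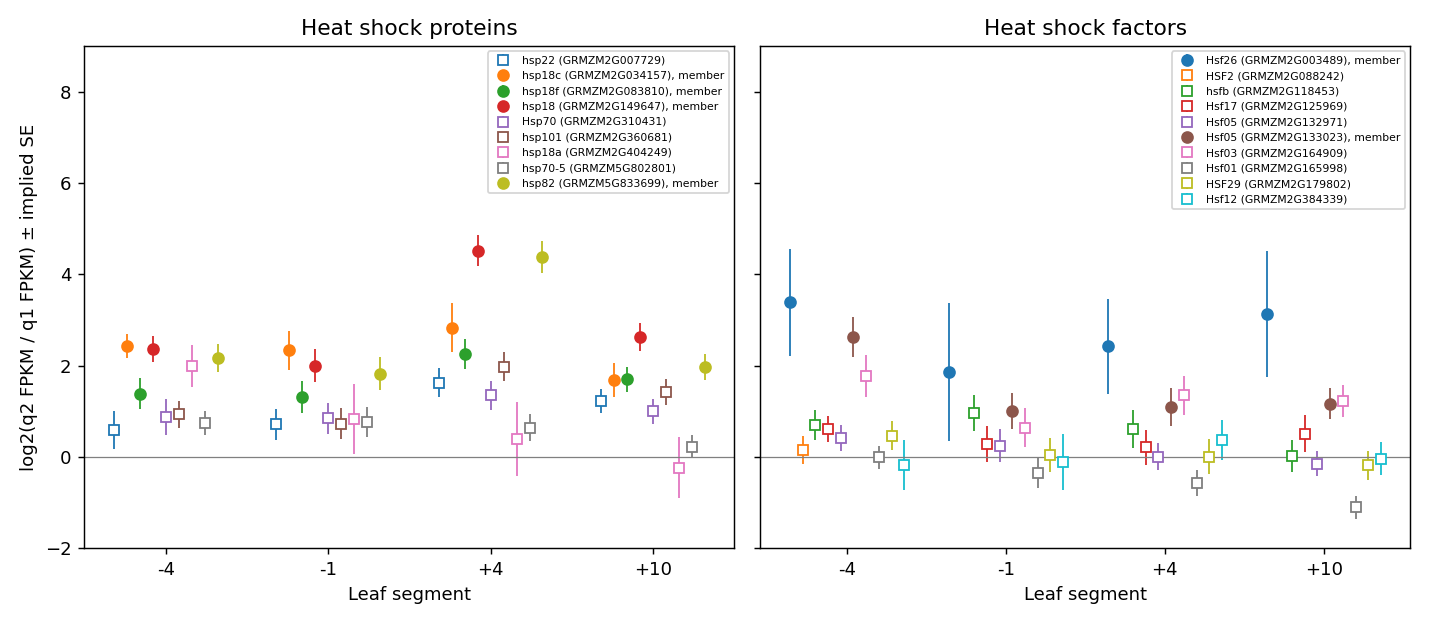
Log2 ratio of q2 over q1 FPKM in each leaf segment for genes with a heat shock protein symbol (left) and a heat shock factor symbol (right), each bar being the standard error implied by the authors' statistic. Filled circles are members and open squares are not; hsp18 and hsp82 reach 4.51 and 4.38 at +4, and Hsf26 has the widest errors.

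The heat shock factor genes among the members were Hsf26 and Hsf05, both at low level. Hsf26 (GRMZM2G003489) stood at 0.751, 1.73, 0.923 and 0.687 FPKM in q1 and 7.83, 6.28, 4.95 and 6.04 FPKM in q2. In each segment q2 was above q1, with wide errors of the log2 ratios, 3.38 ± 1.17, 1.86 ± 1.50, 2.42 ± 1.04 and 3.14 ± 1.38. The authors' Cuffdiff test did not call Hsf26 at -1 (adjusted p = 0.0658). Hsf05 (GRMZM2G133023; chromosome 1, 287719532 to 287722437) stood at 2.31, 10.5, 5.401 and 7.598 FPKM in q1 and 14.3, 20.98, 11.5 and 17.01 FPKM in q2, with log2 ratios of 2.63 ± 0.43, 1.00 ± 0.40, 1.09 ± 0.42 and 1.16 ± 0.34. The widest gap of Hsf05 was at the leaf base.

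The name table gives the symbol Hsf05 to a second identifier, GRMZM2G132971, which lies 230 bases away (chromosome 1, 287715095 to 287719302). That identifier stood at 15.97, 23.7, 55.7 and 91.3 FPKM in q1 and 21.3, 28.1, 55.9 and 82.6 FPKM in q2. Its log2 ratios were 0.42 ± 0.28, 0.25 ± 0.36, 0.00 ± 0.30 and -0.14 ± 0.26, so that the 2 gene models listed under 1 current gene had different ratios, and only the first was a member. Of the tested genes with a heat shock factor symbol, 7 of 10, 3 of 9, 4 of 9 and 3 of 9 were called higher in the 4 segments, and 0, 0, 1 and 1 lower. Leaving out the 2 members, the calls higher were 5 of 8, 2 of 7, 2 of 7 and 1 of 7. Called higher over all tested genes were 15.2%, 9.48%, 19.5% and 21.5%, and nothing is read from these small counts. Hsf03 (GRMZM2G164909), at rank 252, had log2 ratios of 1.77 ± 0.46, 0.64 ± 0.43, 1.35 ± 0.42 and 1.23 ± 0.35 and was called in each table.

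Symbols of other transcription factor families were carried by GRMZM2G103647 and GLK44. GRMZM2G103647, listed as bZIP17 and also as bZip112, a basic leucine zipper factor, stood at 2.704, 4.42, 14.6 and 19.4 FPKM in q1 and 9.42, 44.4, 62.1 and 65.8 FPKM in q2. Levels were higher at each segment towards the tip in both groups, and the gap was widest at -1, with log2 ratios of 1.80 ± 0.44, 3.33 ± 0.47, 2.09 ± 0.34 and 1.77 ± 0.27. Among tested genes with a bZIP symbol, 5 of 26, 6 of 25, 6 of 26 and 8 of 24 were called higher and 1, 1, 5 and 3 lower. Leaving out the member, the calls higher were 4 of 25, 5 of 24, 5 of 25 and 7 of 23. Over all tested genes, 15.2%, 9.48%, 19.5% and 21.5% were called higher. Of those outside the 100, bZIP76 (GRMZM2G134863), at rank 149, had log2 ratios of 1.52 ± 0.92, 1.61 ± 0.54, 0.96 ± 0.54 and 1.24 ± 0.70. A further identifier listed as bzip76, GRMZM2G055413, had 0.06 ± 0.27, -0.06 ± 0.38, 0.04 ± 0.33 and -0.24 ± 0.29 and was not called in any segment. GLK44 (GRMZM2G124540), named for the G2-like family, stood at 2.24, 11.3, 2.34 and 1.202 FPKM in q1 and 9.47, 25.2, 14.1 and 14.1 FPKM in q2. In q1 GLK44 was low everywhere but at -1, whereas in q2 its levels at -1, +4 and +10 were all above 14 FPKM.

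Symbols read here as those of enzymes were lkrsdh1, AGA2 and CYP78A53. The gene lkrsdh1 (GRMZM2G181362; chromosome 4, 175739964 to 175751055) encodes the bifunctional enzyme that opens the breakdown of lysine. It stood at 13.3, 14.4, 7.57 and 7.44 FPKM in q1 and 34.4, 44.4, 25.9 and 49.7 FPKM in q2. In q1 lkrsdh1 was lower at +4 and +10 than at -4 and -1, whereas in q2 it was highest at +10, and its log2 ratios were 1.37 ± 0.38, 1.63 ± 0.44, 1.78 ± 0.42 and 2.74 ± 0.38. In the list of amino acid genes chosen by symbol, 5 of 13, 3 of 12, 2 of 13 and 6 of 13 tested genes were called higher and 2, 4, 5 and 3 lower. Leaving out lkrsdh1, the calls higher were 4 of 12, 2 of 11, 1 of 12 and 5 of 12. The background was 15.2%, 9.48%, 19.5% and 21.5% of all tested genes. The gene asn3, which the rule left out, was among the genes of the list called higher in each segment. Another, the glutamine synthetase gene gln2 (GRMZM2G024104), had log2 ratios of 1.31 ± 0.70, 2.58 ± 0.74, 0.41 ± 0.49 and 0.80 ± 0.38 and was not called at +4.

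AGA2 (GRMZM2G127147) is named as an alkaline alpha-galactosidase, an enzyme that frees galactose from sugars of the raffinose family. It stood at 3.75, 16.8, 24.3 and 18.3 FPKM in q1 and 12.5, 35.9, 55.7 and 61.3 FPKM in q2, with log2 ratios of 1.73 ± 0.32, 1.09 ± 0.35, 1.20 ± 0.29 and 1.74 ± 0.26. In q1 its level peaked at +4, and in q2 at +10. Other genes of the short list of raffinose and galactinol enzymes differed in direction. AGA3b (GRMZM2G037265) had log2 ratios of -0.10 ± 0.37, 3.03 ± 0.62, 3.23 ± 0.53 and 2.21 ± 0.43, near 0 at the base and higher elsewhere, and AGA1 (GRMZM2G340656) had 0.77 ± 0.89, -1.33 ± 0.59, -2.26 ± 0.61 and -3.15 ± 0.50. The list had 2 of 5, 3 of 6, 5 of 6 and 4 of 6 tested genes called higher and 0, 1, 1 and 1 lower. Leaving out AGA2, the calls higher were 1 of 4, 2 of 5, 4 of 5 and 3 of 5. Among all tested genes the shares called higher were 15.2%, 9.48%, 19.5% and 21.5%.

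CYP78A53 (GRMZM2G092823), a cytochrome P450 gene, was low throughout, at 0.537, 0.233, 0.555 and 0.968 FPKM in q1 and 3.79, 1.42, 6.203 and 5.297 FPKM in q2. Its log2 ratios were 2.82 ± 0.59, 2.61 ± 0.88, 3.48 ± 0.64 and 2.45 ± 0.54. Tested genes with a P450 symbol were called higher in 2 of 7, 3 of 10, 2 of 10 and 1 of 10 cases and lower in 3, 6, 7 and 8. Leaving out CYP78A53, the calls higher were 1 of 6, 2 of 9, 1 of 9 and 0 of 9. All tested genes were called higher in 15.2%, 9.48%, 19.5% and 21.5% of cases and lower in 12.7%, 8.22%, 22.8% and 22.3%. A gene listed as reticulon (GRMZM2G142409), of a family that shapes the endoplasmic reticulum, stood at 10.9, 11.3, 8.73 and 14.2 FPKM in q1 and 34.4, 27.4, 18.8 and 36.4 FPKM in q2. Its log2 ratios were 1.65 ± 0.30, 1.28 ± 0.39, 1.11 ± 0.37 and 1.36 ± 0.30.

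For the 3 other symbols no role is stated. TPS9 (GRMZM2G312521) stood at 2.397, 13.6, 9.18 and 14.1 FPKM in q1 and 11.6, 40.98, 28.6 and 35.3 FPKM in q2, with its largest log2 ratio at the base. MTD1 (GRMZM2G090865) stood at 10.4, 16.2, 10.9 and 15.6 FPKM in q1 and 33.1, 36.7, 43.9 and 56.3 FPKM in q2 and had its largest ratio at +4. ERTC (GRMZM2G051135) stood at 42.96, 79.1, 28.7 and 54.1 FPKM in q1 and 85.2, 184, 216 and 180.2 FPKM in q2. The log2 ratios of ERTC were 0.99 ± 0.28, 1.21 ± 0.35, 2.91 ± 0.35 and 1.74 ± 0.27, so the gap at +4 was the widest.

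Most members have no symbol. Of the 100, 70 matched an entry of the RefSeq name table, 15 of them with a usable symbol, and 30 matched none; among all genes that could have been chosen 75.5% matched and 11.4% had a symbol. The genes without a symbol are named by their identifiers. None of the first 15 ranks has a symbol.

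Rank 1 was held by GRMZM2G479260 (chromosome 9, 140353420 to 140361196), which stood at 22.8, 26.02, 1.19 and 2.48 FPKM in q1 and 486, 373, 177 and 87.5 FPKM in q2. It was the only one of the 100 with L above 3.5 in all 4 segments, and its levels were lower at +4 and +10 than at -4 and -1 in both groups. Its log2 ratios were 4.41 ± 1.04, 3.84 ± 0.59, 7.22 ± 1.22 and 5.14 ± 0.67. The deposited locus is shared with GRMZM2G479243, which stood at 36.2, 8.79, 1.77 and 1.33 FPKM in q1 and 31.9, 7.003, 0.945 and 0.811 FPKM in q2 and was not called in any table. GRMZM2G134888, at rank 2 (chromosome 6, 110576546 to 110582798), stood at 0.465, 0.389, 1.97 and 2.67 FPKM in q1 and 19.5, 21.2, 36.6 and 33.4 FPKM in q2. Its levels were higher at +4 and +10 than at -4 and -1 in both groups, with log2 ratios of 5.39 ± 0.63, 5.77 ± 0.73, 4.22 ± 0.45 and 3.64 ± 0.38. GRMZM2G113967, at rank 3 (chromosome 4, 183982297 to 183984927), stood at 8.74, 7.26, 3.16 and 2.43 FPKM in q1 and 79.6, 95.7, 76.2 and 79.3 FPKM in q2. Its level in q2 was nearly even along the leaf while that in q1 was lower at each segment towards the tip, and its log2 ratio was 3.19 ± 0.27 at -4 and 5.03 ± 0.39 at +10.

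Several of the next ranks had one segment that stood out. GRMZM2G126900 (rank 8) reached 4.55, 4.05, 0.787 and 0.902 FPKM in q1 and 28.7, 163, 34.2 and 20.2 FPKM in q2. Its L of 5.02 at -1 was the largest of any member in that segment. GRMZM2G025459 (rank 9) had L of 4.16, 2.31, 3.46 and 2.74, with the widest gap at the base, where it went from 1.24 to 38.9 FPKM. GRMZM2G387360 (rank 18) had the second largest L at +4, 5.15, from 0.0792 to 37.3 FPKM, and was not called there. AC212728.3_FG001 (rank 13) had L of 2.17, 2.32, 2.92 and 4.31, with a level of 0.218 FPKM in q1 at the tip. GRMZM2G069694 (rank 4) had L of 2.85, 3.89, 3.82 and 4.11 and was not called at -4, where q1 stood at 0.1502 FPKM and q2 at 7.28 FPKM. In the authors' Cuffdiff test, the adjusted p of GRMZM2G069694 at -4 and that of GRMZM2G387360 at +4 were both 0.244.

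The 7 genes of the first 20 ranks not given elsewhere had L between 1.80 and 4.26 in every segment. GRMZM2G306679 (rank 12) was the most abundant of them, at 70.9, 119, 30.3 and 70.8 FPKM in q1 and 723, 539.9, 598 and 427 FPKM in q2. GRMZM2G142802 (rank 7) stood at 20.8, 18.7, 5.203 and 11.8 FPKM in q1 and 117, 150.4, 111 and 148 FPKM in q2, with its widest gap at +4. GRMZM2G011006 (rank 10) had L of 3.07, 2.29, 3.31 and 3.02. GRMZM2G008226 (rank 17) had 2.02, 2.78, 1.92 and 2.03, with its peak at -1. GRMZM2G074017 (rank 19) had L of 3.11, 2.38, 2.35 and 1.80, declining from base to tip. GRMZM2G073508 (rank 14) had 2.38, 2.14, 2.79 and 2.23 and GRMZM2G468585 (rank 15) 2.88, 2.08, 3.41 and 3.42; the first was not called at -1 and +4 and the second not at -4.

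**Figure D3:**
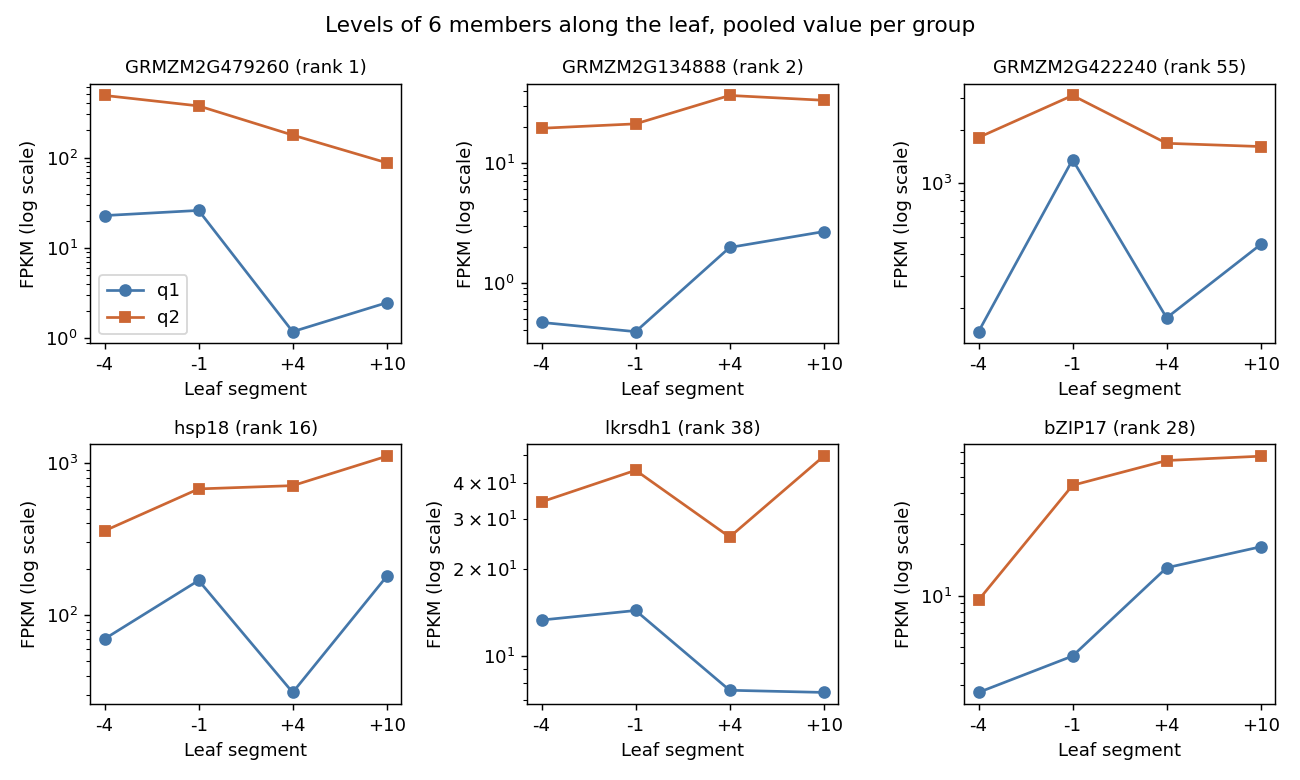
FPKM (log scale, 1 pooled value per group and segment) of 6 members along the leaf, with q1 as circles and q2 as squares. The q2 line lies above the q1 line in every panel, and in hsp18 and GRMZM2G422240 the q1 level drops at +4.

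In 3 cases a pair of members lies within 50 kb of each other in the deposited coordinates. On chromosome 6, GRMZM2G352618 (128455029 to 128455900) and GRMZM2G323888 (128465242 to 128466087) are 9.34 kb apart with 0 genes listed between them. The first stood at 6.14, 3.83, 2.98 and 4.91 FPKM in q1 and 46.8, 32.9, 41.6 and 59.9 FPKM in q2, and the second at 10.9, 6.76, 3.05 and 3.702 FPKM in q1 and 56.96, 67.5, 20.9 and 58.5 FPKM in q2. L exceeded 2.2 in every segment for both genes, which hold ranks 5 and 11. On chromosome 3, GRMZM2G437100 (20425734 to 20426696) and GRMZM2G422240 (20460536 to 20460994) are 33.8 kb apart, with 1 gene listed between them at 0 FPKM in both groups. GRMZM2G422240 was the most abundant member, at 146, 1355, 175 and 452 FPKM in q1 and 1805, 3111, 1675 and 1606 FPKM in q2. GRMZM2G437100 stood at 11.5, 14.7, 2.39 and 13.3 FPKM in q1 and 181, 87.2, 80.5 and 92.1 FPKM in q2. Both genes had their smallest L at -1 and large values at -4 and +4, L being 3.62, 1.20, 3.25 and 1.83 for the first and 3.86, 2.49, 4.59 and 2.71 for the second.

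The pair on chromosome 9 joins GRMZM2G103647 (109142261 to 109144645), the bZIP17 gene above, and GRMZM2G103900 (109113453 to 109116015), 26.2 kb away. GRMZM2G103900 stood at 13.6, 12.1, 6.401 and 6.001 FPKM in q1 and 41.9, 55.9, 81.3 and 84.6 FPKM in q2. Its gap widened from base to tip, with L of 1.56, 2.12, 3.47 and 3.61, while that of bZIP17 peaked at -1. Of the 2 genes listed between them, GRMZM2G103897 had L of 1.80, 0.77, 1.03 and 0.67, and GRMZM2G103805 had L of 0.28, -0.06, 0.07 and 0.33. Both of these lie below the values of the neighbouring members at -1, +4 and +10.

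In all, 7 members reached at least 500 FPKM in q2 in some segment, a set chosen after the values were seen. They include hsp18, hsp18f, GRMZM2G306679 and GRMZM2G422240. GRMZM2G007939 (rank 88) stood at 21.1, 151, 241 and 327 FPKM in q1 and 108, 298, 619 and 904 FPKM in q2, GRMZM2G450125 (rank 44) at 8.72, 46.4, 84.3 and 129.8 FPKM in q1 and 28.4, 112, 379.8 and 569 FPKM in q2, and GRMZM2G006480 (rank 48) at 1.11, 14.2, 97.02 and 223 FPKM in q1 and 6.502, 46.5, 308 and 520.2 FPKM in q2. These last 3 had a higher level at each segment towards the tip in both groups, and q2 was above q1 throughout.

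Other members without a symbol, 67 past rank 20, had a smallest L between 0.92 and 1.57, and their L ran from 0.93 to 3.76 at -4, from 0.93 to 3.32 at -1, from 0.92 to 4.31 at +4 and from 0.93 to 5.84 at +10. Their median level was 3.49, 7.50, 4.40 and 5.15 FPKM in q1 and 16.1, 25.3, 22.6 and 27.9 FPKM in q2. The largest L at +10, 5.84, was that of GRMZM2G169360 (rank 30), which is listed at 0 in q1 there and at 56.2 FPKM in q2. It was the only member listed at 0 in any group, and it spans 201 bases.

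Of the 12 members not called in every table, 8 span less than 1 kb. GRMZM2G024551 (rank 74), the member called in a single table, stood at 4.88, 5.65, 1.36 and 1.26 FPKM in q1 and 24.1, 12.7, 6.26 and 3.81 FPKM in q2. Its adjusted p values from Cuffdiff were 0.0675, 0.0573 and 0.103 at -1, +4 and +10, and its log2 ratios were 2.31 ± 0.72, 1.17 ± 0.75, 2.20 ± 1.44 and 1.60 ± 1.57. GRMZM2G021973 (rank 84) was not called at -4, where it went from 0.709 to 2.38 FPKM, but reached 111 FPKM in q2 at +10 against 4.31 FPKM in q1.

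The cut falls in a dense part of the ranking. Just inside it were GRMZM2G127134, GRMZM2G081090 and GRMZM2G166776, with a smallest L of 0.927, 0.925 and 0.924. Just outside were GRMZM2G011240, AC149829.2_FG002 and GRMZM2G375517, at 0.923, 0.920 and 0.918. GRMZM2G078472 and GRMZM2G475185 also had L at or above the cut in all 4 tables but were not tested in every table.

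Opposite in direction, 44 genes had L at or below minus the cut in all 4 segments. The 100 at or above the cut are fixed by the rule, so nothing is read from setting the 44 beside them. The 100th gene of the mirrored ranking had a largest L of -0.63. With no minimum size, L was above 0 in all segments for 2593 genes and below 0 for 1944.

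**Figure D4:**
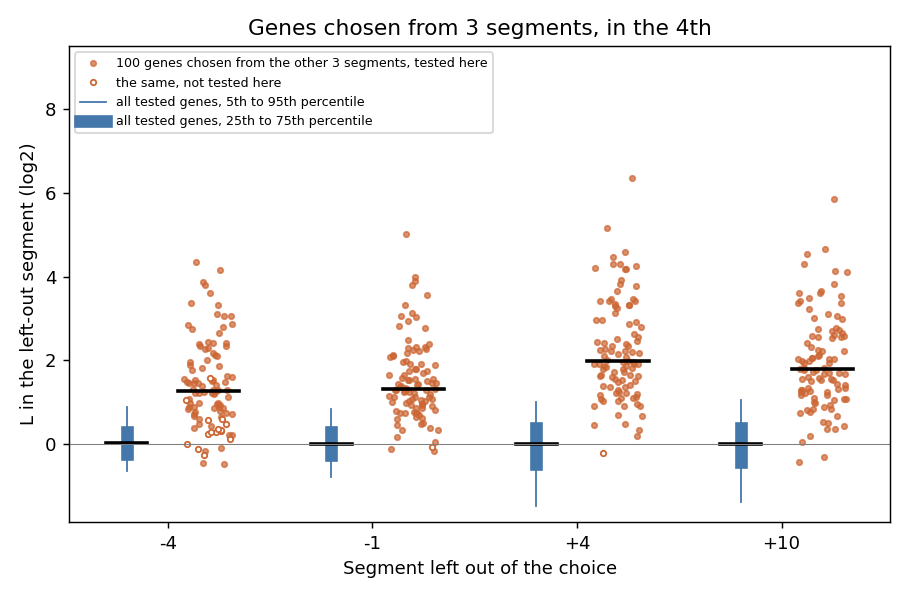
L (log2) in the segment left out of the choice for 100 genes chosen from the other 3 segments (circles, open where the gene was not tested there; black line, median), beside all tested genes of that segment (blue bars, percentiles as in the key). The medians of the chosen genes lie between 1.28 and 1.98, and those of all tested genes at 0.01 to 0.02.

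A measure that the choice did not use was had by leaving out each segment, choosing 100 genes by the same rule from the other 3 tables and reading their values in the table left out. At -4, 69 of 100 such genes were called higher and 1 lower, with 15 not tested there, beside 15.2% of all tested genes called higher. At -1, 82 were called higher and 0 lower (background 9.48%), at +4, 90 and 0 (19.5%), and at +10, 92 and 1 (21.5%). Genes not tested in the table left out, 15, 1, 1 and 0, count as not called. Median L in the segment left out was 1.28, 1.33, 1.98 and 1.79, and q2 was above q1 for 93, 97, 99 and 98 of the genes, against 52.4%, 50.7%, 50.5% and 51.0% of all tested genes. These counts are a description without a test. The sources used here do not say whether segments with the same replicate number came from the same plants, so the 4 tables may not be independent.

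Without segment -4 the rule chose 62 of the 100 members again, and without -1, +4 or +10 it chose 75, 91 and 84.

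The rule did not rank members by the segment of their highest level, but the same q1 and q2 levels entered L and so shaped it. In q1, 26 members had their highest level at -4, 40 at -1, 6 at +4 and 28 at +10. Over all genes that could have been chosen, the shares were 55.5%, 18.0%, 4.73% and 21.8%. In q2, 27, 27, 6 and 40 members peaked at the 4 segments, against 57.5%, 17.7%, 5.34% and 19.4% of genes that could have been chosen. The range of a member over the 4 segments, as log2 of FPKM + 1, was at the median 1.74 in q1 and 1.60 in q2, against 1.61 and 1.47 for all genes that could have been chosen. These differences in shares and ranges were not tested, and nothing is read from them.

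**Figure D5:**
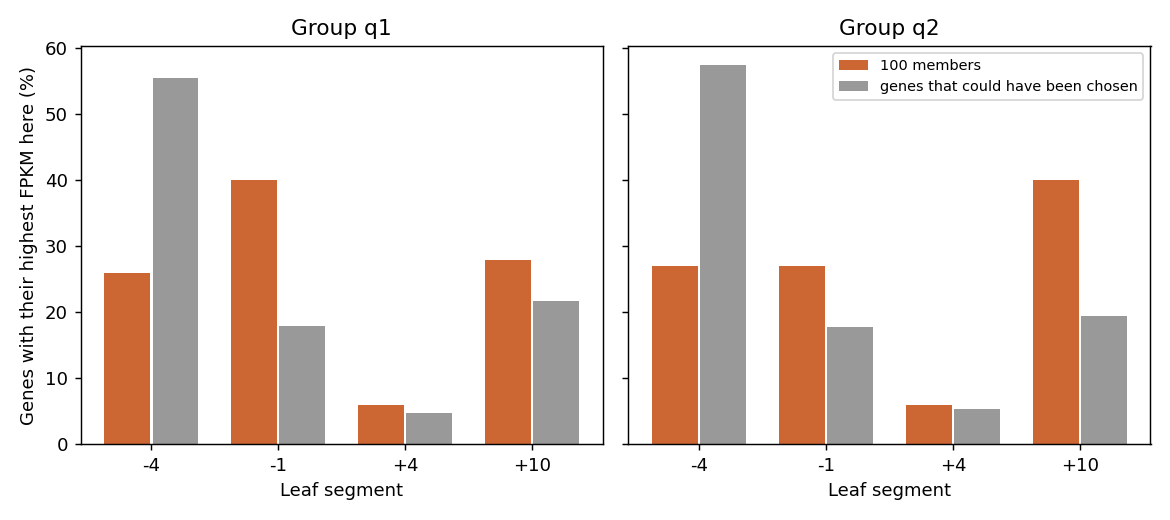
Share of genes (%) whose highest FPKM of the 4 segments lies in each leaf segment, in group q1 (left) and q2 (right), for the 100 members and for the 14134 genes that could have been chosen. In q2, 40% of members peak at +10 against 19.4% of genes that could have been chosen, and 27% at -4 against 57.5%. The rule used these levels, and the differences were not tested.

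Members lay on all 10 chromosomes. The counts on chromosomes 1 to 10 were 15, 7, 11, 13, 10, 11, 5, 9, 12 and 7. Chromosome 9 held 12 members and 7.32% of the genes that could have been chosen, and chromosome 2 held 7 members and 11.1% of those genes. No member lay within 10 Mb of pDCT2, where 129 genes could have been chosen. The nearest was CYP78A53, 25.6 Mb away on chromosome 1.

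The members' gene models are short. The deposited locus of a member, introns included, spanned 1.71 kb at the median, against 4.19 kb for all genes that could have been chosen and 2.74 kb for the 100 genes of the mirrored ranking. Of the members, 28 span less than 1 kb, of which 10 matched no entry of the name table, and 7 span less than 500 bases; 5.21% of genes that could have been chosen span less than 1 kb. The median implied standard error of the members' log2 ratios was 0.44, 0.44, 0.48 and 0.39, beside 0.30, 0.41, 0.42 and 0.35 for all tested genes. The part of length in the choice was not tested. A deposited locus shared with another gene was listed for 2 members, GRMZM2G479260 above and GRMZM2G051151. The partner of GRMZM2G051151, GRMZM5G836674, had L of -0.19, -0.28, 0.11 and -0.22, beside 2.19, 1.30, 1.42 and 0.99 for the member. GRMZM2G093325 and GRMZM2G059799 each matched 2 entries of the name table, so their values may join 2 genes.

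Of 21 lists searched by symbol, 6 held 10 of the members, as described above. No member was found among the lists of dehydrins and LEA proteins, aquaporins, trehalose enzymes, sugar transporters and cleavage enzymes, expansins, glutathione S-transferases, peroxidases and catalases, kinases and phosphatases, or the AP2/EREBP, NAC, WRKY, MYB, bHLH, homeobox and zinc finger factors. Since 85 members have no symbol, a family with no match may still hold members. The symbol TPS9 was not among those the trehalose list searched, and its role is not stated here. The search therefore does not settle whether that list lacks this member.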

How the data were processed

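The labels assign 24 libraries to 8 groups. The submitters' processing notes name GSNAP and Cuffdiff, with no version; the genome build and gene models are not named in the sources used here. Per the file headers, each deposited table gives FPKM for q1 and q2, pooled by the authors over replicates, a test statistic (a score), a p-value and a q-value (adjusted p here). Replicate values were not analysed here, so p-values rest on the authors' estimate of the spread between pools of plants.

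L, log2 ratios of FPKM and implied standard errors (the log2 ratio over the deposited score) were computed with Python 3.11.15 and pandas 2.3.3. The selection code was run on simulated data in which planted genes had a large difference in every table. That run checked the code only and cannot tell how reliably the members were chosen. Members and lists were chosen with earlier results of these data known. Named genes are members with a symbol, the first 20 ranks, the 3 largest L per segment, neighbours within 50 kb, genes at the cut, examples not called, and up to 2 other genes per list. After matching, 27 matches were dropped because the symbol stands for something else. Names come from RefSeq genes on Zm-B73-REFERENCE-NAM-5.0, where 18775 of 39634 identifiers were found; its coordinates were not used. No protein, promoter or motif comparison was made, and sequences were not analysed here.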

Additional observations from a re-analysis of the deposited data

How the results depend on the processing

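Of the members, 87 were chosen again with a pseudocount of 0.1 FPKM, 71 with 5 FPKM, 100 with no filter, 82 with a filter of 20 FPKM, 75 by the mean L and 98 with L centred on the median of tested genes. Leaving out segment -4 gave the lowest number, 62; the cause was not tested. Calls of members, their median L and the counts in segments left out kept their direction and moved by less than 1.5 times under each alternative run: an adjusted p under 0.01, a 2-fold minimum, adjustment over genes tested in all 4 tables, other pseudocounts, centring and the 20 FPKM filter. Median L at +4 ran from 1.51 to 2.44 with the pseudocount. No paired analysis was possible because the tables hold 1 pooled value per group, and replicates could not be left out for the same reason. Depth is unknown, so low levels carry no counting error here.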
